A study of Saccharomyces cerevisiae with 28 samples.

Results

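The 9 genes described here encode activators of respiration and of growth on non-fermentable carbon in budding yeast (Saccharomyces cerevisiae): CAT8, SIP4, ADR1, RDS2, ERT1, HAP4, HAP2, HAP3 and HAP5. They were chosen by gene identifier, not by their values, and all 9 were found among the 6692 genes of each file. RNA-seq libraries of steady-state cultures came from the strain YL390 at 0.2% glucose and the strain YL388 at 0.0125, 0.02, 0.025, 0.05, 0.075, 0.1, 0.15, 0.2 and 0.4% glucose, with 1 library each. All cultures were grown in synthetic minimal medium with 0.2% glucose, then diluted into fresh medium of the stated concentration for 2 h before fixation in cold methanol. The labels name the strains by number and give no genotype, so what alleles YL390 and YL388 carry or share is not known from them. The other 18 samples of the series, exposed to salt, ethanol or no stress in 3 strains, are not analysed here. From what is known of the study, it concerns the activator Msn2 and the repressor Mig1, and the steady-state cultures address how transcript levels follow the glucose concentration.

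Yeast ferments glucose while it is plentiful and represses genes for respiration and for the use of ethanol, lactate, glycerol or fatty acids. When glucose runs low the kinase Snf1 becomes active, the repressor Mig1 leaves its target promoters, and activators take over. Cat8 and Sip4 are zinc cluster proteins that act through the carbon source response element in promoters of gluconeogenic and glyoxylate cycle genes. Adr1 is a zinc finger activator of the ethanol-using alcohol dehydrogenase gene ADH2 and of peroxisomal genes, and Rds2 and Ert1 are zinc cluster regulators of gluconeogenesis. Hap2, Hap3 and Hap5 bind the CCAAT box together, and Hap4 joins them as the activating subunit that turns on respiratory genes.

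Levels are given as deposited, in FPKM, which counts sequenced fragments per length of the gene and per size of the library. The genes lie on chromosomes XIII (CAT8, YMR280C, 827028 to 831329), X (SIP4, YJL089W, 265926 to 268415), IV (ADR1, YDR216W, 895035 to 899006), XVI (RDS2, YPL133C, 299888 to 301228), II (ERT1, YBR239C, 698354 to 699943), XI (HAP4, YKL109W, 232227 to 233891), VII (HAP2, YGL237C, 52731 to 53528), II (HAP3, YBL021C, 181660 to 182094) and XV (HAP5, YOR358W, 1010161 to 1010889) of sacCer3. Of the 9 genes, 0 overlap another gene of the files. The confidence bounds stepped in whole fragments, which gave about 16100000 fragments for the YL390 library and 9680000 to 14700000 for the YL388 libraries. Behind the 9 values of a gene in YL388 stood 28 to 111 fragments for SIP4, 249 to 882 for CAT8 and 1540 to 4223 for HAP4.

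Because the series concerns Mig1 and Msn2, the sequences upstream of the 9 genes were searched for the cores of Mig1 sites (GTGGGG and GCGGGG) and for the stress element bound by Msn2 (CCCCT), on both strands. In the 1000 bases before the start codon, CAT8 held a pair of Mig1 cores and HAP4 held 1. The Mig1 cores and stress elements of CAT8 and HAP4 are shown in the direction of the gene, with the core in capitals. The sequence is from RefSeq's R64 genome (sacCer3 coordinates).
CAT8 Mig1 core, 231 bases before the start codon, minus strand, chrXIII:831545-831570: gcatggagcgGCGGGGctgatatttt
CAT8 Mig1 core, 215 bases before, minus strand, chrXIII:831529-831554: ctgatattttGTGGGGtacgaaagca
HAP4 Mig1 core, 656 bases before, plus strand, chrXI:231561-231586: gcacaacggaGCGGGGccgaggcggc
CAT8 stress element, 138 bases before, minus strand, chrXIII:831453-831477: ttgttaaactCCCCTttaaacctgt
HAP4 stress element, 737 bases before, plus strand, chrXI:231480-231504: cccccggggcAGGGGtccgaagtct
The capitals of the HAP4 stress element are CCCCT read on the opposite strand, and both motifs share the letters GGGG.

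These matches are descriptions of letters, and they are common. A Mig1 core stood in the 1000-base window of 2 of the 9 genes and of 25.3% of all 5973 genes with such a window. In the narrower window of 250 bases before to 50 after the start, 1 of the 9 genes (CAT8) and 6.83% of 5978 genes had one. The stress element was found before 6 of the 9 genes (all but SIP4, ERT1 and HAP3) and before 55.0% of all genes, in 1000 bases. Those of ADR1, RDS2, HAP2 and HAP5 are not printed above, and the nearest to a start codon was 1 of HAP5, at 65 bases. The CCAAT box was found before 8 of 9 (all but HAP5) and before 88.8% of all genes. The carbon source response element was found before 0 of 9 and before 0.77% of all genes. These shares of the activators are near those of all genes.

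As glucose became scarce in YL388, transcripts of 8 of the 9 activators rose, and ERT1 did not pass the test. CAT8 and HAP4 had the largest fitted changes, followed by ADR1, SIP4 and HAP3, while HAP5, HAP2 and RDS2 changed less. With a pseudocount of 5 in place of 1, HAP4 (1.33) came before CAT8 (1.10) and SIP4 (0.44) came after HAP2 (0.52), and with one of 0.1 SIP4 (1.36) came before ADR1 (1.14). The change was estimated as a slope on log2 glucose over the 9 libraries in limma on log2(FPKM + 1), and is given as the fitted level at 0.0125% minus that at 0.4%. With no replicate at any concentration, its error is the scatter around the line. At an adjusted p (Benjamini-Hochberg over all genes) under 0.05, 31.6% of the 6121 genes tested rose and 15.7% fell, 47.3% in all. The split of all genes depends on scaling: 1937 rose and 958 fell as deposited, 1409 rose and 1399 fell with median-of-ratios scaling, and 1213 rose and 1738 fell with quantile normalization. The median change of the 9 activators was 0.94, against 0.117 over all genes tested. With median-of-ratios scaling these medians were 0.82 and -0.0003, with 7 activators that rose, and with quantile normalization 0.53 and -0.08, with 6 that rose and 1 that fell. CAT8, HAP4 and ADR1 rose by at least 2-fold, 3 of the 9, as did 7.52% of all genes. This count was 4, with SIP4, at a pseudocount of 0.1, and 2, without ADR1, at a pseudocount of 5 and with median-of-ratios scaling or quantile normalization. In RNA of whole cultures, fewer cells that express a gene and less RNA per cell cannot be told apart.

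**Figure D1:**
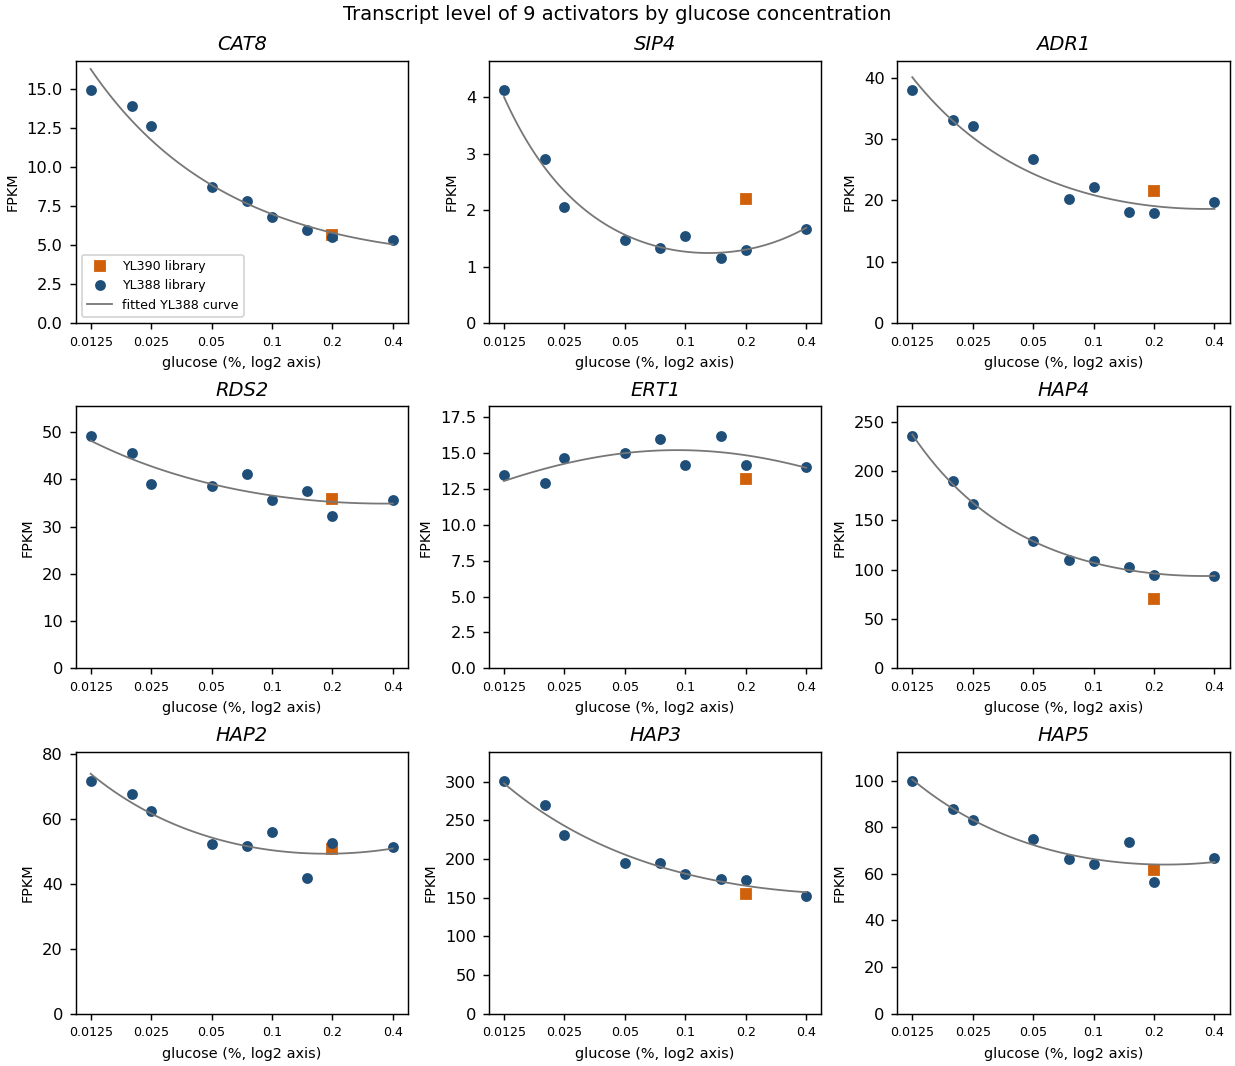
FPKM (vertical axes, from 0) of the 9 activator genes by glucose concentration in percent (horizontal axes, log2 scale), with 1 point per library, YL390 as squares and YL388 as circles, and the fitted YL388 curve as a line. HAP4 lay on a smooth curve between 93.5 and 236.1 FPKM in YL388, with the YL390 library below it at 70.4 FPKM, and ERT1 stayed between 12.9 and 16.2 FPKM in YL388.

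CAT8 stood at 14.96, 13.9, 12.7, 8.73, 7.81, 6.83, 5.98, 5.50 and 5.34 FPKM in the YL388 libraries from 0.0125 to 0.4% glucose. Each library was higher than the next one at more glucose, over the whole range. Bounds of neighbours could overlap, as at 0.2% (4.85 to 6.14 FPKM) and 0.4% (4.73 to 5.96 FPKM). The fitted change was 1.54 ± 0.14 on the log2 scale (SE, n = 9 libraries; limma adjusted p = 0.000149), larger than that of 95.9% of all genes tested. As deposited, the level at 0.0125% was 2.80 times that at 0.4%.

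SIP4, whose product binds the same element as Cat8, was the least abundant of the 9. It stood at 4.13, 2.90, 2.06, 1.48, 1.32, 1.54, 1.16, 1.29 and 1.66 FPKM from 0.0125 to 0.4%. The libraries from 0.05% upwards lay between 1.16 and 1.66 FPKM in no steady order, and the levels at 0.025% and below were higher than all of these. The change of 0.97 ± 0.34 passed narrowly (limma adjusted p = 0.0403). This call rests on few fragments and ended when the library at 0.0125% was left out (change 0.63, limma adjusted p = 0.234), and in 6 of the other 8 fits that left out 1 library. It was also lost with median-of-ratios scaling (limma adjusted p = 0.0556) and with quantile normalization (limma adjusted p = 0.262).

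ADR1 stood at 38.0, 33.1, 32.1, 26.7, 20.2, 22.3, 18.2, 17.9 and 19.8 FPKM from 0.0125 to 0.4%. The levels at 0.05% and below were higher than all those at 0.075% and above. The change was 1.10 ± 0.16 (limma adjusted p = 0.000708).

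The zinc cluster genes RDS2 and ERT1 moved least. RDS2 stood at 49.3, 45.6, 39.0, 38.7, 41.2, 35.6, 37.5, 32.3 and 35.6 FPKM from 0.0125 to 0.4%. The levels at 0.0125 and 0.02% were above all others, which lay between 32.3 and 41.2 FPKM, and the change was 0.47 ± 0.11 (limma adjusted p = 0.00668). ERT1 stood at 13.5, 12.9, 14.7, 15.03, 16.0, 14.1, 16.2, 14.2 and 14.0 FPKM over the same concentrations. Its levels at 0.0125 and 0.02% were lower than in all other libraries, which followed no steady order, and the square term of the curve described below did not pass for it (limma adjusted p = 0.257). Its change was -0.11 ± 0.11 (limma adjusted p = 0.462), with a 95% interval of -0.37 to 0.15. A rise as large as that of any of the other 8 genes lies outside that interval, but with quantile normalization ERT1 passed as a fall (change -0.38, limma adjusted p = 0.0262).

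HAP4, the activating subunit gene, stood at 236.1, 189.7, 166.8, 129.0, 110.0, 109.3, 103.1, 94.5 and 93.5 FPKM from 0.0125 to 0.4%. As with CAT8, every library was higher by FPKM than the next one at more glucose, though those at 0.075 and 0.1% and at 0.2 and 0.4% were close. By the centres of the confidence bounds the library at 0.1% (100.8 FPKM) was slightly above that at 0.075% (100.7 FPKM). The change was 1.37 ± 0.15 (limma adjusted p = 0.000265).

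The genes for the DNA-binding subunits rose by less. HAP3 stood at 300.8, 269.4, 231.2, 195.1, 194.9, 180.3, 173.6, 172.6 and 152.2 FPKM from 0.0125 to 0.4%. By FPKM it too was lower in each library than in the one before it with less glucose. By the centres of the bounds HAP3 was slightly higher at 0.075% (107.6 FPKM) than at 0.05% (106.9 FPKM). By the same centres it was about level at 0.2% (95.115 FPKM) and 0.15% (95.092 FPKM). The change of HAP3 was 0.94 ± 0.09 (limma adjusted p = 0.00021). HAP5 stood at 99.9, 88.0, 83.2, 74.9, 66.4, 64.3, 73.8, 56.4 and 66.9 FPKM. Its 3 highest levels were those at 0.025% and below, with no steady order from 0.1% upwards, and its change was 0.65 ± 0.14 (limma adjusted p = 0.00466). HAP2 stood at 71.7, 67.5, 62.6, 52.2, 51.6, 56.0, 41.9, 52.5 and 51.4 FPKM. Again the levels at 0.025% and below were the 3 highest, and the lowest, at 0.15%, rested on the fewest fragments (269) of its 9 libraries. The change of HAP2 was 0.56 ± 0.15 (limma adjusted p = 0.0129). Its call ended when the library at 0.0125% was left out (limma adjusted p = 0.0708) and with quantile normalization (limma adjusted p = 0.0513). Without the 0.0125% library 6 of the 9 activators rose.

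**Figure D2:**
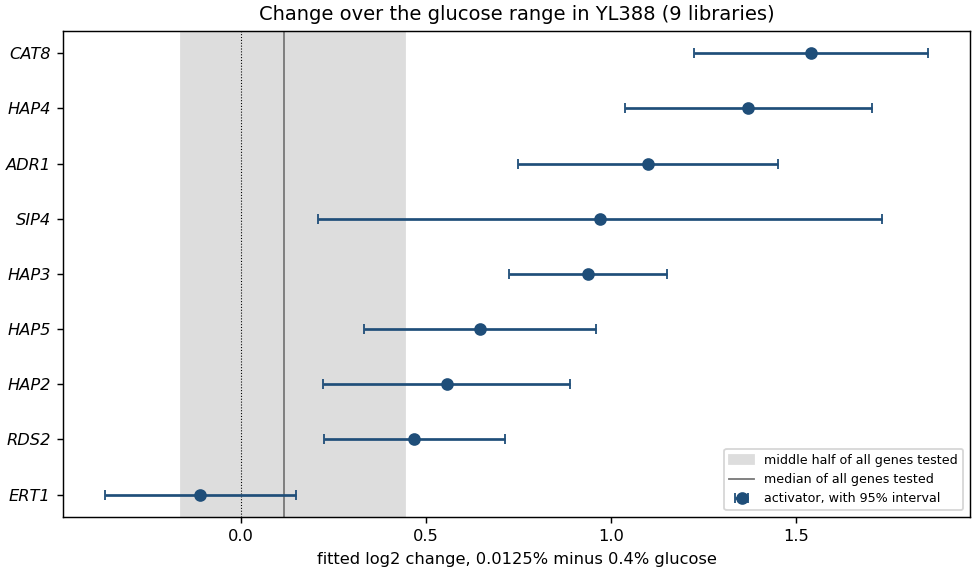
Fitted log2 change between 0.0125 and 0.4% glucose in YL388 (horizontal axis) for each of the 9 activators (rows), with bars for the 95% interval from limma over 9 libraries. The band runs between the quartiles of all genes tested and the line marks their median of 0.117; the intervals of CAT8, HAP4, ADR1 and HAP3 lie above the band, and that of ERT1 spans 0.

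Within the CCAAT-binding complex, HAP4 rose relative to each of the other subunit genes. The FPKM of HAP4 was 3.29 times that of HAP2 at 0.0125% and 1.82 times at 0.4%. Relative to HAP5 it was 2.36 times at 0.0125% and 1.40 times at 0.4%, and relative to HAP3 0.785 times at 0.0125% and 0.614 times at 0.4%. By the centres of the confidence bounds HAP4 was 1.31 times HAP3 at 0.0125% and 1.02 times at 0.4%, so which of the pair is higher depends on the column read. The slope of each log2 ratio on log2 glucose was tested by an exact two-sided permutation over all 362880 pairings of levels and concentrations. Over the range the ratio changed by 0.82 ± 0.15 for HAP2 (SE, n = 9 libraries; exact p = 0.00146), by 0.43 ± 0.11 for HAP3 (exact p = 0.00639) and by 0.73 ± 0.11 for HAP5 (exact p = 0.000513). Adjusted over the 3 ratios, the exact permutation p-values were 0.00219, 0.00639 and 0.00154. In the 9 fits that left out 1 library the adjusted exact p reached 0.0347 at most.

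**Figure D3:**
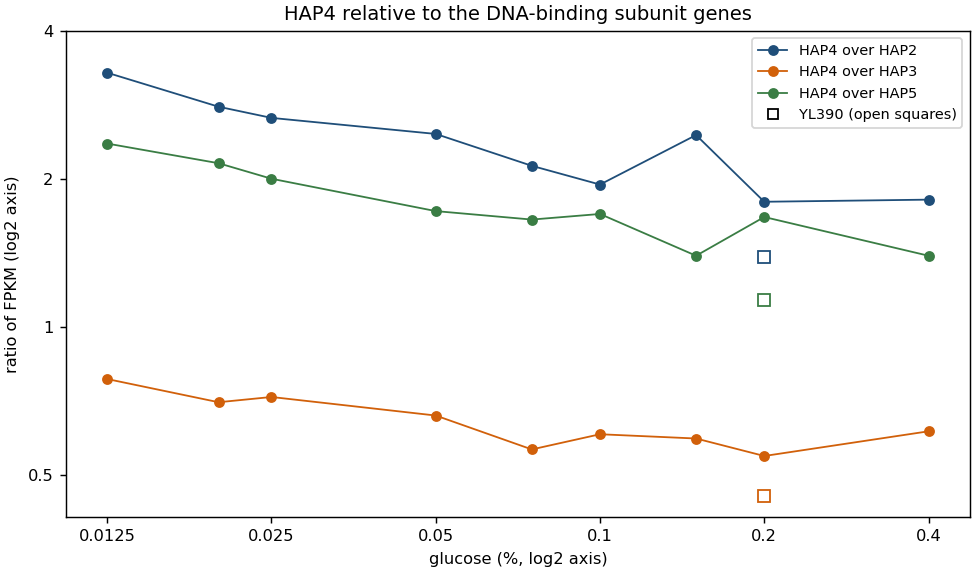
Ratio of the FPKM of HAP4 to that of HAP2, HAP3 and HAP5 (vertical axis, log2 scale) by glucose concentration (horizontal axis, log2 scale), with open squares for YL390 and filled circles for YL388. All 3 ratios were highest at 0.0125% in YL388, and the YL390 ratios at 0.2% (1.39, 0.455 and 1.14) lay below every YL388 ratio of the same pair. The FPKM column is plotted; by the centres of the bounds HAP4 over HAP3 was 1.31 at 0.0125% and 1.02 at 0.4%.

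For the 8 activators that rose, the difference per doubling of glucose was larger in the lower part of the range. Between 0.0125 and 0.1% glucose, a span of 3 doublings, HAP4 differed by 0.37 per doubling, and between 0.1 and 0.4%, a span of 2 doublings, by 0.11 per doubling on the log2 scale. For CAT8 these differences were 0.34 and 0.15, and for SIP4 0.34 and -0.03. A curve with the square of log2 glucose was fitted to test such bending. The square term passed for HAP4 (0.057 ± 0.007, limma adjusted p = 0.00264) and for no other activator. Over all genes, 8.68% had a square term above 0 and 7.38% one below 0, 16.1% in all. SIP4 had the largest square term of the 9 (0.10 ± 0.03, limma adjusted p = 0.0753), which passed with a pseudocount of 5, without a filter on low values, or without the intensity trend. On the fitted curves, the midpoint of the change between the ends was reached at 0.0449% for CAT8, 0.0398% for HAP3, 0.0336% for ADR1, 0.0333% for HAP4 and 0.0208% for SIP4. These positions are descriptions without an error.

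The order of the 9 levels was read from the centres of the confidence bounds, because the FPKM of short genes is high relative to its bounds in these files: the FPKM was 1.81 to 1.84 times the centre for HAP3, of 435 bp, and between 0.999 and 1.0 times the centre for CAT8, of 4302 bp. At 0.0125% the order by centre was HAP4 (215.0), HAP3 (163.9), HAP5 (74.4), HAP2 (56.4), RDS2 (44.2), ADR1 (37.8), CAT8 (14.95), ERT1 (12.4) and SIP4 (4.12 FPKM). The bounds of RDS2 and ADR1 overlapped there, as did those of CAT8 and ERT1. At 0.4% HAP4 (85.7) and HAP3 (83.8 FPKM) had overlapping bounds, as had HAP5 and HAP2, and CAT8 (5.34) lay below ERT1 (12.7 FPKM) with bounds apart. By the FPKM column itself HAP3 was above HAP4 in both of these libraries, so the order of that pair depends on which column is read.

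Each list of known targets had a median change above the median of the 9 activators (0.94). Set against their own activators, the CCAAT targets (median 1.18) changed by less than HAP4 (1.37), though by more than HAP2, HAP3 and HAP5. The median of the Cat8 and Sip4 targets was above the changes of CAT8 (1.54) and SIP4 (0.97), and that of the Adr1 targets (1.64) above that of ADR1 (1.10). The log2(FPKM + 1) scale understates changes of low genes, which include CAT8 and SIP4. All 12 listed targets of Cat8 and Sip4 rose, with a median change of 1.81. SFC1, the succinate-fumarate carrier, changed by 5.11 ± 0.83 (limma adjusted p = 0.0013) and JEN1, the lactate permease, by 4.45 ± 0.57 (limma adjusted p = 0.000461). At the other end stood the cytosolic malate dehydrogenase gene MDH2 (0.91 ± 0.19) and YAT1, a carnitine acetyltransferase (0.64 ± 0.18).

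Of 14 listed Adr1 targets, 13 rose and the median over all 14 was 1.64. ADH2 had 301.4 FPKM at 0.0125% and 32.6 FPKM at 0.4%, a change of 3.00 ± 0.59 (limma adjusted p = 0.00322), and the acetate transporter gene ADY2 changed by 2.80 ± 0.52. ICL2 (2-methylisocitrate lyase) changed by 0.83 ± 0.13, and the peroxisomal catalase gene CTA1 had a change of 0.53 ± 0.21 that did not pass (limma adjusted p = 0.0692). ACS1, an acetyl-CoA synthetase gene, is in both of these lists.

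All 24 listed targets of the CCAAT-binding complex rose, with a median of 1.18 and a narrow range of 0.91 to 2.35. The succinate dehydrogenase genes SDH4 (2.35 ± 0.25) and SDH1 (2.09 ± 0.20) led, and ATP2 of the ATP synthase (0.94 ± 0.11) and COX4 of cytochrome c oxidase (0.91 ± 0.13) changed least. With median-of-ratios scaling the counts that rose were again 12, 13 and 24 in these lists, and with quantile normalization 11, 13 and 24.

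In the lists of other regulators the share that rose was near the 31.6% of all genes. Of 11 genes for regulators of the oleate, retrograde and oxygen responses and similar factors, 3 rose (the median over all 11 was 0.16), with USV1 (1.46 ± 0.08, limma adjusted p = 4.5e-05) and GSM1 (1.12 ± 0.17, limma adjusted p = 0.001), both zinc-binding regulators, in front. OAF3 and MKS1 had the smallest values (0.03 ± 0.09 and -0.05 ± 0.08). Of 12 genes of the Snf1 and Mig1 pathway upstream of the activators, 4 rose and the median over all 12 was 0.16. The Snf1 complex genes SIP2 (0.63 ± 0.10) and SNF1 (0.35 ± 0.07) led, and the kinase gene SAK1 (-0.08 ± 0.11) and MIG1 (-0.14 ± 0.14, limma adjusted p = 0.444) stood at the other end. With quantile normalization these lists had 2 members each that rose and 1 each that fell.

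**Figure D4:**
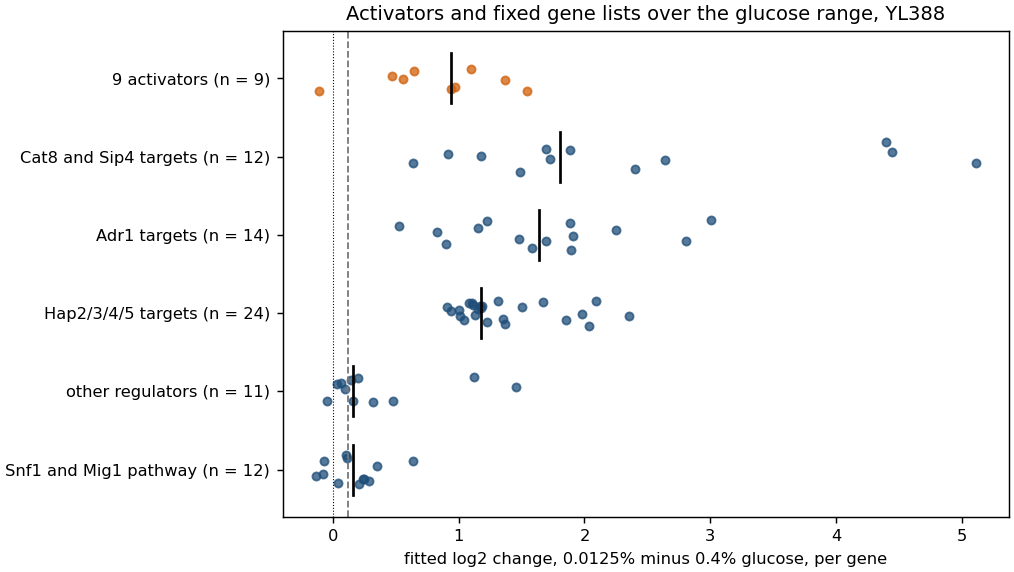
Fitted log2 change between 0.0125 and 0.4% glucose in YL388 (horizontal axis), 1 point per gene, for the 9 activators, the 3 lists of their targets and 2 lists of other regulators (rows); black bars are medians and the dashed line is the median of all genes tested, 0.117. The target lists have medians of 1.81, 1.64 and 1.18 and the lists of other regulators 0.16 each.

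The shape of the HAP4 series was close to that of its targets. Across the 9 YL388 libraries the Pearson correlation of log2(FPKM + 1) between HAP4 and the 24 CCAAT targets was between 0.979 and 0.998, with a median of 0.993. The median was 0.979 for HAP3, 0.912 for HAP5 and 0.872 for HAP2 with the same targets, and 0.371 between HAP4 and the other 4771 genes with clear expression. Among those genes the most alike to HAP4 were XBP1, a transcriptional repressor gene (r = 0.998), and the succinate dehydrogenase genes SDH2 (r = 0.998) and SDH1 (r = 0.998). All genes share the libraries and the glucose trend, so these values describe likeness only.

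For CAT8 the genes most alike were GLC3, the glycogen branching enzyme gene (r = 0.996), GAL3, the galactose sensor gene (r = 0.995), and MRP17 of the mitochondrial ribosome (r = 0.995). The correlation of CAT8 with its 12 listed targets had a median of 0.91, and that of SIP4 with the same genes 0.952. The target genes that rose at least 2-fold had the midpoint of their change at a median of 0.0258% glucose (10 genes, 0.0222 to 0.0371%), between the 0.0208% of SIP4 and the 0.0449% of CAT8. This median was 0.025% for the targets of Adr1 (11 genes), against 0.0336% for ADR1, and 0.0316% for the CCAAT targets (22 genes), against 0.0333% for HAP4. For ADR1 the genes most alike were YKU70, LSB3 and UBX5 (r between 0.989 and 0.993), and its 14 targets had a median r of 0.906. SIP4 was most like ATG20, FMP45 and DIP5 (r between 0.978 and 0.982), HAP3 most like MXR2, DUG1 and ECM4 (0.994 to 0.995) and HAP5 most like SRY1, SAC6 and RSF1 (0.978 to 0.988). HAP2 was most like UMP1, MFM1 and GGC1 (0.972 to 0.987), RDS2 most like CBT1, MAM3 and APL3 (0.968 to 0.983), and ERT1 most like MGS1, KAP114 and FAP7 (0.878 to 0.944).

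At 0.2% glucose, the concentration shared by both strains, HAP4 was lower in YL390 than in YL388, and so were most of the CCAAT targets. SIP4 and ADR1 were higher in the YL390 library by more than counting error, and the other 6 activators differed within it. Counting error leaves out variation between cultures and libraries. The share of all genes beyond it was not computed, so passing it does not set an activator apart from other genes. HAP4 had 70.4 FPKM in YL390 and 94.5 FPKM in YL388, a difference of -0.42 on the log2 scale, and the YL390 value was below all 9 YL388 libraries. Its bounds did not overlap those of YL388 (60.5 to 68.4 FPKM in YL390 and 81.0 to 91.5 FPKM in YL388). With 1 library per strain there is no test of the strains, and each difference is one between these libraries.

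The YL390 library was then set against the curve through the 9 YL388 libraries in a fit of all 10, which takes it to vary like the YL388 libraries and is a statement on that 1 library. HAP4 lay below the curve by -0.45 ± 0.05 (limma adjusted p = 0.00207), the 1 of 9 activators that did so, and 0 lay above it in that test (0 above also at an unadjusted p under 0.05). That error rests on the scatter of HAP4 around its curve, an SD of 0.037, which limma draws towards the scatter of genes at similar levels. The counting error of the difference between the libraries at 0.2% was 0.126. It is a half-width from the bounds and not an SE, so these values are not on the same scale. Of all genes tested, 2.81% lay below and 0.85% above, 3.66% in all. The call ended when a straight line took the place of the curve (-0.45, limma adjusted p = 0.337, unadjusted p = 0.0172).

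SIP4 had 2.20 FPKM in YL390 and 1.29 FPKM in YL388, from 87 and 42 fragments, a ratio of 1.70. On the plain log2 scale this is 0.77, beyond the counting error of 0.53, and the bounds did not overlap (1.73 to 2.65 FPKM in YL390 and 0.897 to 1.67 FPKM in YL388). On the log2(FPKM + 1) scale, which shrinks so low a gene, the difference was 0.48 and the library was not called off the curve (limma adjusted p = 0.441). ADR1 had 21.5 FPKM in YL390 and 17.9 FPKM in YL388, a plain log2 difference of 0.26 that was beyond its counting error of 0.16, and the library was not called off the curve (limma adjusted p = 0.625). The ADR1 level in YL390 lay between those of YL388 at 0.4% (19.8 FPKM) and at 0.1% glucose (22.3 FPKM). CAT8 had 5.63 FPKM in YL390 and 5.50 FPKM in YL388. For RDS2, ERT1, HAP2, HAP3 and HAP5 the differences lay between -0.16 and 0.14 and within counting error. Of the 9 activators 0 reached 2-fold, against 2.96% of all genes (1.3% higher and 1.66% lower in YL390).

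Of the 24 CCAAT targets, 23 were lower in YL390 than in YL388 at 0.2%, all but the aconitase gene ACO1. Their median difference was -0.27, against 0.05 over all genes. The share of all genes that were lower in YL390 was not counted, but as their median was positive, lower genes were not the majority. CIT1, the citrate synthase gene, had 175.1 FPKM in YL390 and 234.2 FPKM in YL388, and SDH2 had 235.6 FPKM in YL390 and 287.6 FPKM in YL388. The fit over 10 libraries placed 7 of the 24 below the YL388 curve (CYT1, ATP1, CIT1, SDH2, ATP2, COX13 and QCR8, by -0.27 to -0.40) and 0 above it; ATP1 overlaps another gene. Among all genes tested 2.81% lay below that curve. The same fit placed 0 of the 24 below with a straight line (1.05% of all genes) and 5 with median-of-ratios or quantile scaling. Without the YL388 library at 0.4% it placed 4 below (2.42% of all genes). The targets of Cat8 and Sip4 had a median difference of 0.07 (4 of 12 lower in YL390) and those of Adr1 of 0.09 (3 of 14 lower). Of these lists limma called 0 off the curve, and at an unadjusted p under 0.05 1 target of Cat8 and Sip4 and 2 of Adr1 lay above it. USV1 stood furthest of the regulators, with 42.8 FPKM in YL390 and 95.01 FPKM in YL388, and lay below the curve (limma adjusted p = 1.6e-05).

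**Figure D5:**
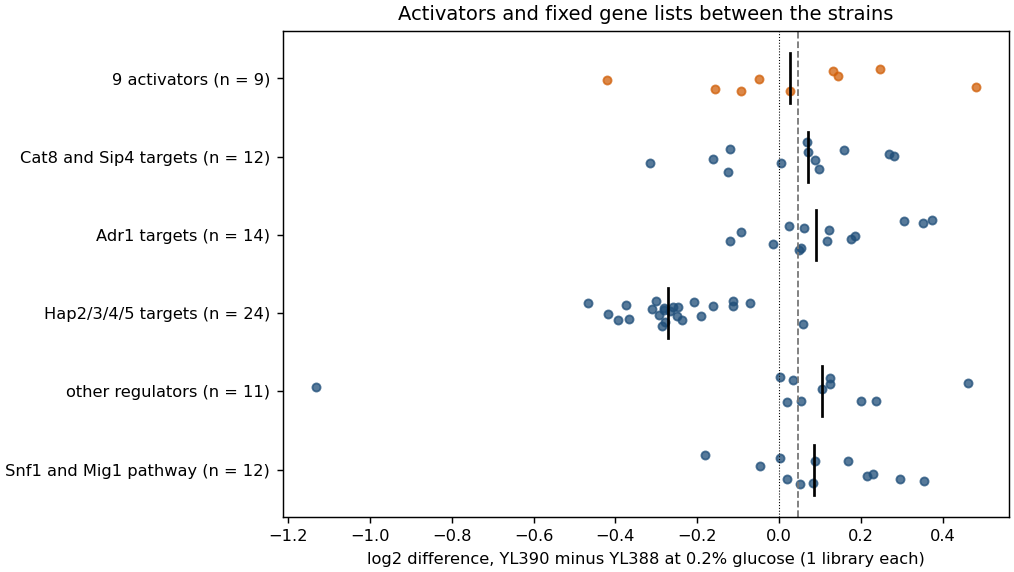
Log2 difference in FPKM, YL390 minus YL388 at 0.2% glucose with 1 library each (horizontal axis), 1 point per gene, for the 9 activators and 5 gene lists (rows); black bars are medians and the dashed line is the median of all genes, 0.05. The CCAAT targets have a median of -0.27, HAP4 is the lowest activator at -0.42 and USV1 the single point at -1.13.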

How the data were processed

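The deposited values are FPKM and their confidence bounds per gene, in Cufflinks format per the file headers. TopHat, DESeq2 and the build sacCer3 are also named in the submitters' processing notes, while versions, gene annotation and strand setting are not given in sources used here. Of 6692 genes, 6008 matched RefSeq's R64 annotation and 6000 had identical coordinates, so upstream sequence was read from that genome. What 1 fragment is worth was read from the bounds, of which at least 98.3% came out whole within 0.05 fragments (up to 300 fragments, genes without overlap).

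Fits used limma 3.58.1 in R 4.3.3 on log2(FPKM + 1), which understates changes of low genes, with an intensity trend. They covered genes averaging at least 1 FPKM (6121 in the 9 YL388 libraries). The slope fit was checked on simulated data. Target and regulator lists were written from general knowledge. The genes named from a list are its 2 largest and 2 smallest changes, and the 3 most alike to each activator were ranked among genes that averaged 10 FPKM or more, were above 0 in every library and overlapped no other gene; CIT1, SDH2, ACO1, ACS1 and the targets below the YL388 curve were named after their values were seen. The 1000-base window was added once the genome was at hand. The members and lists were chosen with earlier results of these data known. Nothing states that cultures were separate biological samples, so p-values measure only the scatter between these libraries.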

Additional observations from a re-analysis of the deposited data

How the results depend on the processing

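No paired analysis was possible because each group analysed has 1 library. Pseudocounts, filters, scalings, the centre of the bounds, the error model and leaving out each library were tried. Quantile normalization gave 1213 genes that rose and 1738 that fell, against 1937 and 958, with 6 activators that rose and 1 (ERT1) that fell. With glucose itself, in percent, as the covariate limma called 0 genes and 0 activators in either direction, while 1914 genes and 5 activators had an unadjusted p under 0.05, against 3317 genes and 8 activators on the log scale; the cause was not tested. Leaving out 1 library gave 6 to 8 activators that rose and 0 that fell, 1502 to 1949 genes that rose and 671 to 974 that fell, each change still given over the whole range.

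For the square term, a pseudocount of 5, no filter and no intensity trend each gave 2 activators (HAP4 and SIP4) in place of 1. Leaving out 1 library gave 1 to 2 activators, 198 to 510 genes above 0 and 77 to 418 below, and HAP4 passed each time (limma adjusted p of 0.0354 at most). For the YL390 library, a straight line placed 20 genes above, 64 below and 0 activators below, and leaving out YL388 at 0.4% placed 31 above and 148 below. Signs turned for RDS2 with median-of-ratios scaling (-0.0033), and for CAT8 (0.0601) and HAP5 (0.0048) without YL388 at 0.4%, none of them called. The ratios of HAP4 to HAP2, HAP3 and HAP5 passed with a pseudocount of 0.1, with the centres of the bounds and without each library, and leaving out a library gave changes of 0.72 to 0.90, 0.36 to 0.60 and 0.66 to 0.80. For SIP4, with 28 fragments in its poorest library, depth limits what can be seen. The single library per concentration and strain limits every comparison.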
